A study of Mus musculus with 15 samples.

Results

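The miRNAs described here come from the Dlk1-Dio3 imprinted cluster on mouse chromosome 12, measured in Kupffer cells, the macrophages that reside in the liver sinusoids. Members were all listed mature arms of 33 hairpins of the cluster, chosen by name. Of 248 mature miRNAs listed in the deposited tables, 9 were members, and 24 of the 33 hairpins had no listed arm. In the part of the cluster that lies antisense to Rtl1 these were miR-127-3p, miR-434-3p and miR-136-3p. In the miR-379/miR-410 part they were miR-411-5p, miR-300-3p, miR-381-3p, miR-541-5p, miR-409-3p and miR-410-3p. Each was the single listed arm of its hairpin. No arm was listed of the 21 further hairpins of the cluster that were looked for by name.

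The Dlk1-Dio3 domain is imprinted: Dlk1, Rtl1 and Dio3 are expressed from the paternal chromosome, and the long non-coding RNAs Meg3, Rian and Mirg, with the miRNAs, from the maternal one. The miRNAs antisense to Rtl1, which is needed for the placenta, pair fully with its transcript and direct its cleavage. The cluster is best known from the embryo, placenta and brain of the mouse.

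Small RNA was sequenced from Kupffer cells of C57BL/6J mice, called wt, and from those of obese ob/ob mice, whose leptin gene gives no working hormone. There were 4 wt and 3 ob/ob libraries at 9 weeks of age, and 4 wt and 4 ob/ob libraries at 14 weeks. The labels name the ob/ob strain without a background strain, give no sorting gate, and are silent on whether each replicate is its own animal. The p-values therefore reflect only how much these samples vary, and that variation may be technical. Libraries are called by their genotype, replicate number and age.

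The 9 mature sequences are shown, 5′ to 3′ with the seed (bases 2 to 8, which pair with targets) in capitals, because the arms carry 9 different seeds and because miR-300-3p and miR-381-3p are near-copies. They are from RefSeq (GRCm38.p6).
miR-127-3p: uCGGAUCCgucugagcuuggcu
miR-434-3p: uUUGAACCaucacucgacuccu
miR-136-3p: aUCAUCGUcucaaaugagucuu
miR-411-5p: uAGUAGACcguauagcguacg
miR-300-3p: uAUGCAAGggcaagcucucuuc
miR-381-3p: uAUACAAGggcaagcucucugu
miR-541-5p: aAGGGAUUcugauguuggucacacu
miR-409-3p: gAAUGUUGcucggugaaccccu
miR-410-3p: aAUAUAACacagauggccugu

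No other listed miRNA had one of these seeds, among the 218 of 248 that matched a RefSeq mature sequence by name. miR-300-3p and miR-381-3p were identical at 19 of 22 bases. The 3 differences, counted from 1 at the 5′ end of miR-300-3p, are G4A in the seed and U21G and C22U at the 3′ end. The next closest pairs of members shared 9 of 22 bases. The assignment of reads that could come from both is not given, so the division of reads between these 2 arms is uncertain.

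All 9 arms lie on the plus strand of chromosome 12. miR-127-3p is at chr12:109592888-109592909, miR-434-3p at chr12:109594565-109594586 and miR-136-3p at chr12:109595366-109595387. Their hairpins lie opposite a coding exon of Rtl1, which GENCODE vM21 places on the minus strand. miR-411-5p is at chr12:109710190-109710210, miR-300-3p at chr12:109724363-109724384 and miR-381-3p at chr12:109726870-109726891, in no annotated host gene. miR-541-5p (chr12:109742422-109742446) and miR-409-3p (chr12:109743204-109743225) lie within the gene Mirg outside its exons, and miR-410-3p (chr12:109743764-109743784) overlaps an exon of Mirg. The 3 hairpins opposite Rtl1 start within 2.48 kb of the start of Mir127, and the other 6 start 117 to 151 kb from it.

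**Figure D1:**
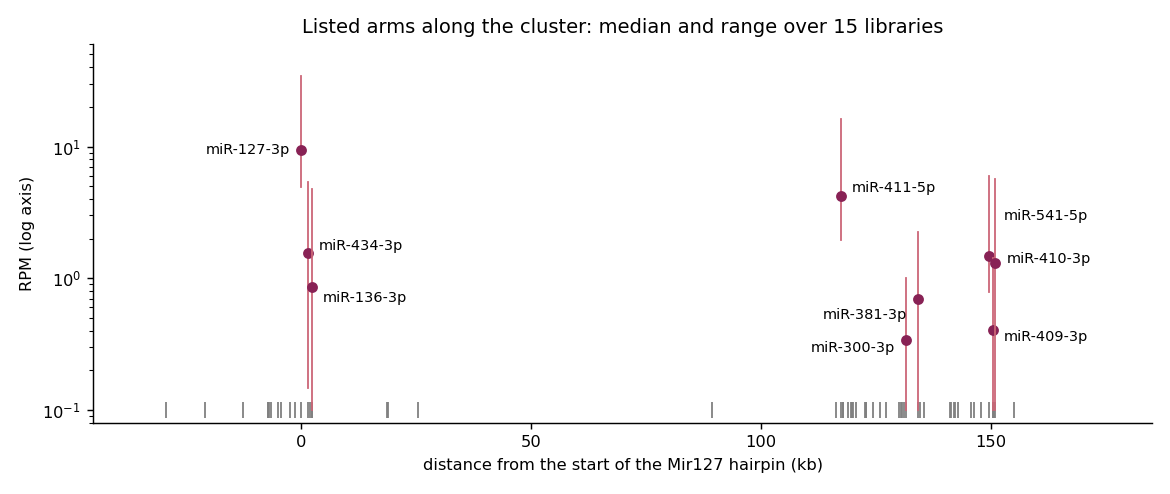
The position of each listed arm along the cluster (x axis, kb from the start of the Mir127 hairpin) against its level in RPM, reads per 1000000 reads (y axis, log scale). Points are medians and lines the range over 15 libraries, with lines that reach the bottom going to 0, and grey ticks mark RefSeq hairpins of the domain. miR-127-3p had the highest median, 9.44 RPM, and miR-300-3p the lowest, 0.337 RPM.

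Levels are in RPM, reads per 1000000 reads, as the authors deposited them. All 3423 values above 0 were whole multiples of 1 step per library within 0.1 reads. The steps imply 9.08 to 98.1 M reads (M, 1000000) per library. ob/ob libraries were deeper than wt ones, with 25.9 to 33.9 against 13.4 to 22.8 M reads at 9 weeks and 44.0 to 98.1 against 9.08 to 39.0 M at 14 weeks. The 248 miRNAs summed to 147387 RPM in wt library 1 of 14 weeks, also the shallowest library, and to 230785 to 358621 RPM in the others. The macrophage arms miR-142a-5p, at 1756 to 4320 RPM, and miR-511-3p, at 53.6 to 183 RPM, were present in every library. Other macrophage and myeloid arms differed widely. Among them, miR-21a-5p was at 13315 to 43352 RPM, miR-142a-3p at 0 to 18.6 RPM and miR-155-3p at 0 to 0.330 RPM. The endothelial miR-126a-5p, at 10086 to 59409 RPM, and the hepatocyte miR-122-5p, at 15.2 to 228 RPM, were present in every library too, so markers of other liver cells accompany the labelled cell type.

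The cluster was a small part of these profiles. The 9 arms together made 10.6 to 70.5 RPM, or 33.4 to 286 of every 1000000 units of the listed miRNA signal. By their median over the libraries they ranked between 115 (miR-127-3p) and 201 (miR-300-3p) of 248. miR-127-3p alone made 33.6 to 51.3% of the cluster's reads. In bulk RNA, fewer cells of a type and less RNA per cell cannot be told apart.

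Of 135 values of the members, 12 (8.89%) were exactly 0, in 5 of the 9 arms. Among 78 other miRNAs with medians in the same range, 71 of 1170 values (6.07%) were 0. miR-126a-3p, abundant in most libraries, is also listed at 0 in ob/ob library 2 of 14 weeks, so a 0 may be a failed estimate. For arms with a 0, levels are given by library or as ranges with no mean, and their fitted differences count the 0 as a value unless stated. The level that 3 reads stand for, the limit that a count of 0 allows, was 0.0306 to 0.330 RPM, which covers counting error only. None of the zeros fell in the ob/ob libraries of 14 weeks, which are the deepest.

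In the Rtl1 antisense part, miR-127-3p was the most abundant arm. Its level in wt libraries 1 to 4 of 9 weeks was 21.2, 14.2, 5.26 and 11.9 RPM. In ob/ob libraries 1 to 3 of 9 weeks it was 9.49, 6.84 and 34.1 RPM. Library 3 of ob/ob stood above every wt library and the other two lay within the wt range, so the groups overlapped. At 14 weeks miR-127-3p was at 16.2, 4.90, 8.73 and 8.14 RPM in wt. In ob/ob it was at 7.36, 6.74, 9.44 and 11.7 RPM, all 4 within the wt range. These values rest on 74 to 1155 reads per library. The counting interval (exact Poisson, 95%) of ob/ob library 3 of 9 weeks, 32.1 to 36.1 RPM on 1155 reads, did not reach that of any other library.

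Group means of miR-127-3p were 13.1 ± 6.56 RPM in wt (SD, n = 4) and 16.8 ± 15.02 in ob/ob (n = 3) at 9 weeks. The difference of ob/ob against wt was 0.15 ± 0.64 (log2 fold change ± SE, 95% interval -1.35 to 1.65) with limma's adjusted p = 0.890. At 14 weeks the means were 9.49 ± 4.77 RPM in wt and 8.81 ± 2.24 in ob/ob (n = 4 each). There the difference was -0.02 ± 0.36 (-0.82 to 0.79), with limma's adjusted p = 0.984. Differences within these intervals are not excluded by these libraries.

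miR-434-3p was the one member whose groups did not overlap at 9 weeks, where 38.7% of all 248 miRNAs had groups without overlap. In wt it stood at 4.22, 5.36, 1.49 and 1.82 RPM. In ob/ob it stood at 1.17, 1.43 and 0.148 RPM. All 3 ob/ob libraries lay below the lowest wt library, by little for library 2 (37 reads, against 21 in wt library 3). This separation was on the deposited scale. After median-ratio rescaling, explained below, ob/ob library 2 lay above wt library 3 (divided by 0.872 and 1.07), so the groups overlapped. The lowest value, in ob/ob library 3, was 5 reads, in the library that was highest for miR-127-3p. At 14 weeks miR-434-3p was at 2.53, 1.38, 1.81 and 1.496 RPM in wt. In ob/ob it was at 1.54, 1.53, 1.92 and 2.15 RPM, within the wt range.

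The log2 fold change of miR-434-3p at 9 weeks was -1.40 ± 0.52 (-2.59 to -0.21), with limma's unadjusted p = 0.0269 and adjusted p = 0.0680. Its mean was 3.22 ± 1.87 RPM in wt (n = 4) and 0.916 ± 0.678 in ob/ob (n = 3). It did not pass the threshold of 0.05. Without ob/ob library 3 it was -0.90, with limma's adjusted p = 0.163. After median-ratio rescaling it was -1.05, with limma's adjusted p = 0.168. It passed with limma's adjusted p = 0.0431 without wt library 3, and 0.0467 where zeros elsewhere in the table were set to missing. Over the alternatives at 9 weeks its adjusted p ran from 0.0240 to 0.187. At 14 weeks the difference was 0.00 ± 0.24 (-0.53 to 0.54), with limma's adjusted p = 0.997.

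miR-136-3p, also opposite Rtl1, was at 1.93, 3.87, 0 and 0 RPM in wt of 9 weeks. In ob/ob of 9 weeks it was at 1.08, 0.580 and 4.72 RPM. The groups overlapped. The wt libraries of 14 weeks were at 0, 0.718, 0 and 0.623 RPM. In ob/ob it was at 0.863, 1.37, 1.53 and 2.80 RPM, all above the highest wt library, as 23.8% of all miRNAs had no overlap at that age. The counting intervals of the closest pair overlapped, 0.477 to 1.04 RPM in wt library 2 (28 reads) and 0.610 to 1.18 RPM in ob/ob library 1 (38 reads).

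It was below the filter at 14 weeks, at least 1 RPM in 4 libraries, and so was not tested there in the main fit. Tested with no filter, it differed by 1.41 ± 0.39 (log2 of RPM + 0.5) with limma's adjusted p = 0.0403, where 14.5% of 248 miRNAs passed. It reached 1 RPM in ob/ob libraries 2, 3 and 4 alone, so the fits with a filter that tested it did so only through the group where it is high, and their calls are no support. Over these and the unfiltered fit its adjusted p ran from 0.0261 to 0.112. Without wt library 1 limma's adjusted p was 0.0597, and without wt library 3 it was 0.112; both are libraries at 0. The 2 wt libraries that are not at 0 were below all 4 ob/ob libraries as well. At 9 weeks the fold change was 0.70 ± 0.97 (limma's adjusted p = 0.586), and -0.65 with the zeros set to missing.

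**Figure D2:**
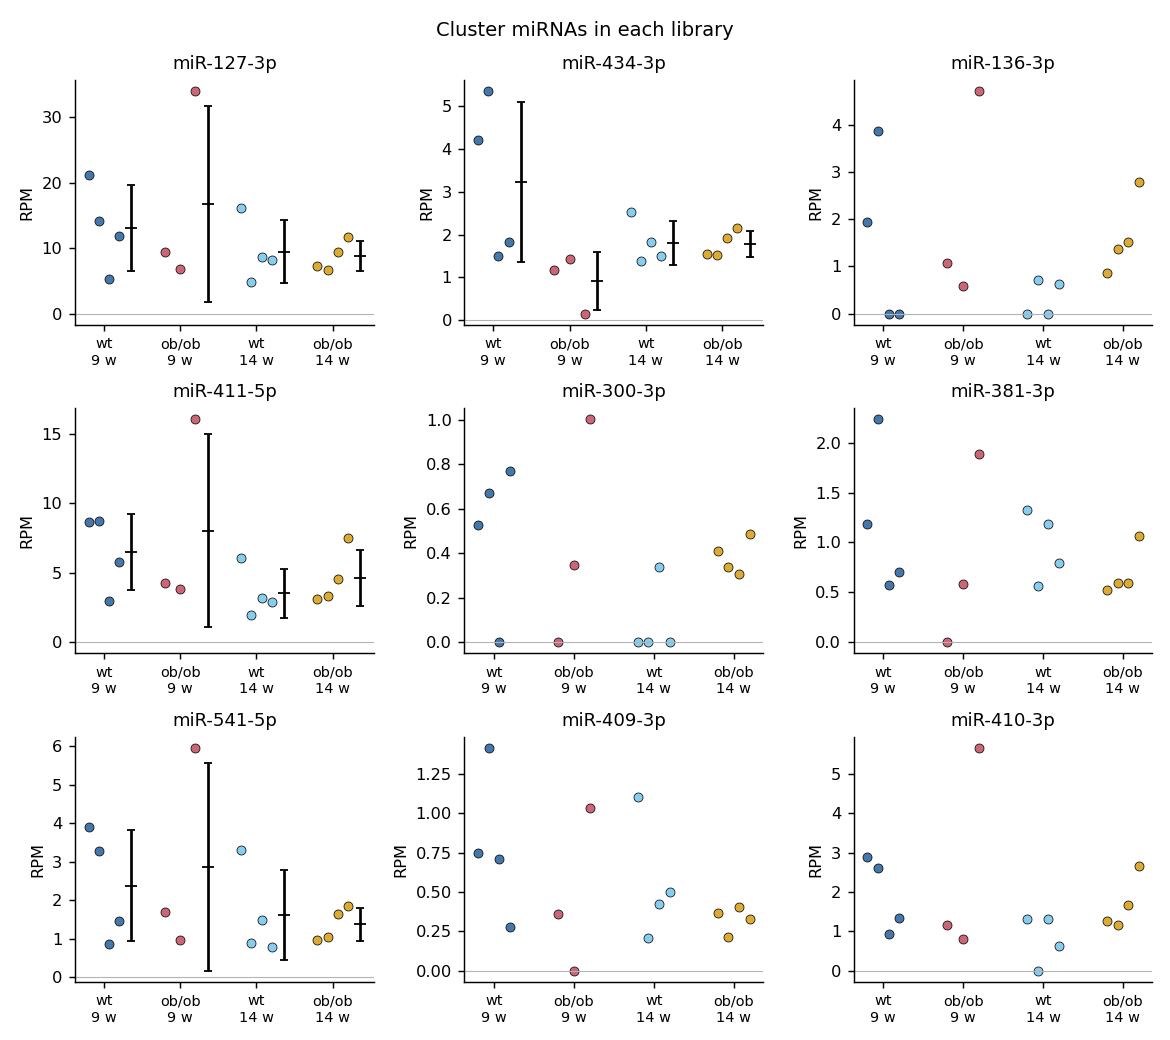
Level of each of the 9 arms in RPM (y axis, one scale per panel) in every library, by genotype and age (x axis). Points are libraries in the order of their replicate numbers, and bars to the right give the mean ± SD for the 4 arms with no 0. The third ob/ob library of 9 weeks was the highest point of its age for 6 of the 9 arms, among them miR-127-3p at 34.1 RPM, and the lowest for miR-434-3p at 0.148 RPM.

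In the miR-379/miR-410 part, miR-411-5p was the most abundant arm. At 9 weeks it was at 8.65, 8.72, 2.98 and 5.74 RPM in wt. In ob/ob it was at 4.23, 3.82 and 16.0 RPM. The wt libraries of 14 weeks were at 6.06, 1.95, 3.16 and 2.91 RPM. Those of ob/ob were at 3.11, 3.31, 4.52 and 7.51 RPM. The order of the libraries was close to that of miR-127-3p at 9 weeks, with ob/ob library 3 high, and the genotypes overlapped at both ages.

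The mean of miR-411-5p was 6.52 ± 2.74 RPM in wt (n = 4) and 8.04 ± 6.94 in ob/ob (n = 3) at 9 weeks. The fold change was 0.09 ± 0.55 (log2, -1.18 to 1.36), with limma's adjusted p = 0.924. At 14 weeks the means were 3.52 ± 1.77 and 4.62 ± 2.03 RPM (n = 4 each). The fold change there was 0.37 ± 0.37 (-0.47 to 1.21), with limma's adjusted p = 0.561.

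miR-541-5p was at 3.91, 3.28, 0.853 and 1.47 RPM in wt and at 1.68, 0.966 and 5.96 RPM in ob/ob of 9 weeks. It stood at 3.30, 0.897, 1.48 and 0.790 RPM in wt and at 0.954, 1.05, 1.63 and 1.84 RPM in ob/ob of 14 weeks. The highest libraries for miR-541-5p were ob/ob library 3 at 9 weeks and wt library 1 at 14 weeks. Its fold changes were 0.09 ± 0.60 at 9 weeks (limma's adjusted p = 0.928) and -0.07 ± 0.36 at 14 weeks (adjusted p = 0.909).

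miR-410-3p, the last arm along the miR-379/miR-410 part, was at 2.90, 2.61, 0.924 and 1.33 RPM in wt and at 1.17, 0.811 and 5.66 RPM in ob/ob of 9 weeks. At 14 weeks it was at 1.32, 0, 1.31 and 0.623 RPM in wt and at 1.27, 1.16, 1.66 and 2.66 RPM in ob/ob. The wt libraries 1 and 3 lay above ob/ob libraries 1 and 2, so the genotypes overlapped. The fold change at 14 weeks was 0.86 ± 0.42 (-0.09 to 1.81), with limma's adjusted p = 0.193, and 0.45 with the single 0 set to missing. At 9 weeks it was 0.06 ± 0.58 (limma's adjusted p = 0.956).

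The near-copies miR-300-3p and miR-381-3p, whose sequences are printed above, were both rare. miR-381-3p ranged from 0.569 to 2.24 RPM in wt and from 0 to 1.89 in ob/ob at 9 weeks, and from 0.564 to 1.32 in wt and from 0.523 to 1.07 in ob/ob at 14 weeks. miR-300-3p reached 1.003 RPM at most, in ob/ob library 3 of 9 weeks. At 14 weeks it was listed at 0 in 3 of 4 wt libraries, at 0.337 RPM (8 reads) in the other, and at 0.305 to 0.485 RPM (18 to 33 reads) in ob/ob. With no filter this difference was 0.63 ± 0.18 on the log2 scale, with limma's adjusted p = 0.0487, where 14.5% of 248 miRNAs passed. The wt library above 0 lay within the ob/ob range, so the groups overlapped and the difference rested on the 3 wt libraries at 0. In the same fit the near-copy miR-381-3p was at -0.28 (limma's adjusted p = 0.493), and the division of reads between the 2 arms is uncertain. The 3 wt libraries at 0 had levels for 3 reads of 0.0769 to 0.330 RPM.

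miR-409-3p ranged from 0.280 to 1.42 RPM in wt and from 0 to 1.03 in ob/ob at 9 weeks, and from 0.205 to 1.10 in wt and from 0.214 to 0.407 in ob/ob at 14 weeks. Its counts were 0 to 35 reads per library. The ranges of the genotypes overlapped at both ages.

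Read against all miRNAs, no member passed the test between the genotypes as deposited. At 9 weeks 37.4% of the 179 miRNAs tested passed (67, of which 58 were lower in ob/ob), and 0 of the 7 members tested did, with 1 of 7 at an unadjusted p under 0.05, miR-434-3p. At 14 weeks 15.2% of 171 passed (26, of which 20 were higher), and 0 of the 5 members tested did, also at an unadjusted p. limma's voom on the recovered reads called 0 members at either age, with 1 of 7 and 0 of 5 at an unadjusted p under 0.05. miR-300-3p and miR-409-3p were not tested at 9 weeks, nor were these, miR-136-3p and miR-381-3p at 14 weeks, because they missed the filter. With no filter 28.6% of 248 passed at 9 weeks with 0 of 9 members, and 14.5% at 14 weeks with 2 of 9, miR-136-3p and miR-300-3p.

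The median log2 fold change of the 7 members at 9 weeks was 0.09, with 5 above 0, beside -0.51 over all 179 miRNAs. Without ob/ob library 3 the members' values were below 0 except for miR-136-3p at 0.03. Their median was then -0.53, beside -0.52 over the 183 miRNAs tested in that fit. miR-127-3p was then at -0.52, miR-411-5p at -0.53, miR-541-5p at -0.53 and miR-410-3p at -0.63. At 14 weeks the members' median was 0.00, with 3 of 5 above 0, beside 0.20 over all 171. Without wt library 1 of 14 weeks, miR-127-3p was at 0.27, miR-434-3p at 0.14, miR-411-5p at 0.63, miR-541-5p at 0.26 and miR-410-3p at 1.08, none past the threshold. The median over the 177 miRNAs tested in that fit was -0.05.

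Scaling moved all values. After median-ratio rescaling, in which a library is divided by its median miRNA ratio to the geometric mean over that age, the median over all miRNAs went from -0.51 to -0.01 at 9 weeks and from 0.20 to 0.00 at 14 weeks. On that scale miR-127-3p was at 0.64 and -0.23, miR-434-3p at -1.05 and -0.18, miR-411-5p at 0.56 and 0.16, miR-541-5p at 0.50 and -0.26, and miR-410-3p at 0.46 and 0.65 (9 and 14 weeks). No member passed after this rescaling at either age.

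**Figure D3:**
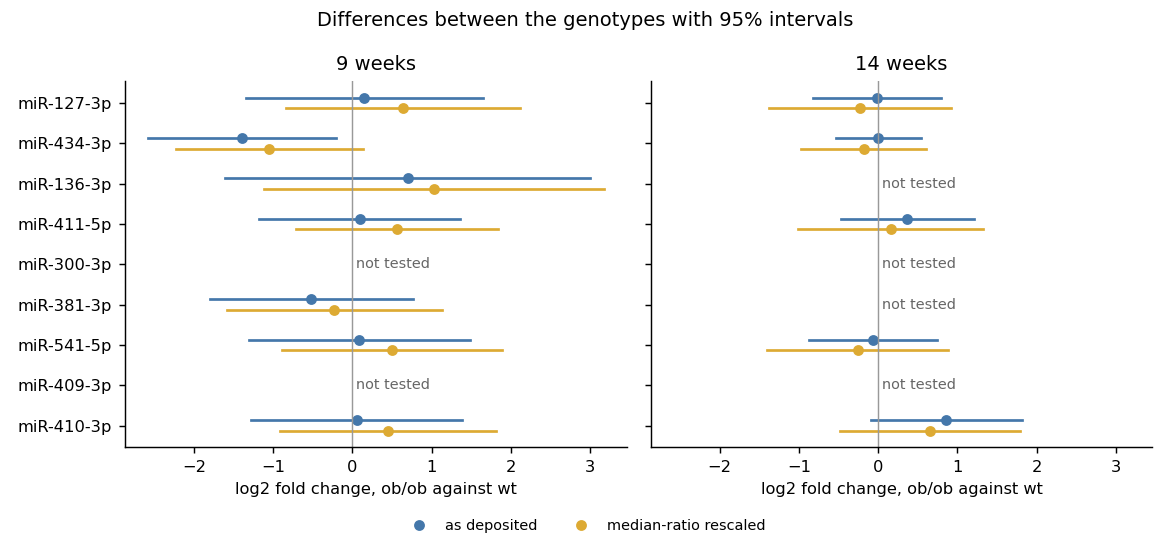
The log2 fold change of ob/ob against wt (x axis) of each arm (y axis) at 9 and 14 weeks, on values as deposited and after median-ratio rescaling, with limma's 95% intervals as lines. All intervals include 0 except that of miR-434-3p at 9 weeks as deposited, -2.59 to -0.21, whose adjusted p was 0.0680.

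Without a test, genotypes that did not overlap can be counted over all 9 members, on the values as deposited. At 9 weeks this held for 1 of 9 (miR-434-3p, lower in ob/ob), beside 38.7% of all 248 miRNAs. The count at 14 weeks was 1 of 9 (miR-136-3p, higher in ob/ob), beside 23.8% of 248. Both counts were below the share of the table.

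The difference between the genotypes was compared between the ages in 1 model of 15 libraries. limma called 0% of 187 miRNAs, with 48 at an unadjusted p under 0.05, and 0 of 8 members, with 1 at an unadjusted p under 0.05. voom also called 0 of 187, with 47 unadjusted. The member was miR-434-3p, whose ob/ob difference was 1.40 ± 0.57 higher at 14 than at 9 weeks (log2, limma's unadjusted p = 0.0271 and adjusted p = 0.149). Without ob/ob library 3 of 9 weeks it was 0.91, with limma's adjusted p = 0.318. For the other members the adjusted p lay between 0.486 and 0.879.

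Across ages no test was made, because the 2 ages are in tables that may have been normalized separately. The mean sum of the 9 arms was 31.1 ± 15.4 RPM in wt (n = 4) and 35.0 ± 30.8 in ob/ob (n = 3) at 9 weeks. In libraries of 14 weeks it was 19.2 ± 9.03 RPM in wt and 21.3 ± 6.70 in ob/ob (n = 4 each). The ranges of the ages overlapped in both genotypes, with 12.8 to 45.2 and 10.6 to 31.8 RPM in wt, and 15.4 to 70.5 and 16.3 to 30.5 RPM in ob/ob. The Rtl1 antisense part made 17.8, 19.8, 11.6 and 12.2 RPM of these means, in the order just given, and the miR-379/miR-410 part 13.3, 15.2, 7.55 and 9.08 RPM.

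At each age, the SD of the sum as deposited was, within both genotypes, larger than the gap between the genotype means. The sum in the highest library was 6.65 times that in the lowest. ob/ob library 3 of 9 weeks, at 70.5 RPM, was highest at its age for 6 of 9 arms, and wt library 2 for the other 3. wt library 1 of 14 weeks, at 31.8 RPM, was highest at its age for 5 arms, and ob/ob library 4, at 30.5 RPM, for the other 4. Without ob/ob library 3 the ob/ob mean at 9 weeks was 17.3 ± 2.70 RPM (n = 2), which is below the wt mean rather than above it. Without wt library 1 the wt mean at 14 weeks was 14.97 ± 3.99 RPM (n = 3).

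Single markers of other liver cells were high or low in these libraries, and the rest of their lists followed only in part. The hepatocyte miR-122-5p was at 228 RPM in ob/ob library 3 of 9 weeks, the highest of its age, beside 113 and 158 RPM in the other ob/ob and 18.4 to 73.1 RPM in the wt libraries. Among libraries of 14 weeks it was highest in wt library 1, at 101 RPM, beside 15.2 to 50.6 RPM in the other wt and 36.9 to 79.4 RPM in the ob/ob libraries. The other abundant hepatocyte arms did not follow it throughout. In ob/ob library 3 miR-192-5p was the highest of its age, at 5148 RPM, and miR-194-5p the lowest of the ob/ob libraries, at 148 RPM. In wt library 1 of 14 weeks miR-192-5p, at 1482 RPM, and miR-194-5p, at 105 RPM, lay within the range of the other wt libraries.

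Among mesenchymal arms, miR-143-3p was at 1222 RPM in ob/ob library 3, the highest of its age. In that library miR-199a-3p was at 340 RPM (726 to 1016 in wt), miR-214-3p at 5.22 RPM (8.24 to 14.2 in wt) and miR-145a-5p at 0, and the sum of the list, 1644 RPM, lay inside the wt range. The endothelial miR-126a-5p, at 44216 RPM there, also lay inside the wt range of 39572 to 55694 RPM. The wt library 1 of 14 weeks was the lowest of all 15 for miR-143-3p, at 226 RPM, for the mesenchymal sum, at 495.9 RPM, and for miR-126a-5p, at 10086 RPM. The part of other cells in the cluster's level was not tested.

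Summed over the lists, the 5 hepatocyte arms (of 3 hairpins) made 1100 to 2223 RPM in wt and 3967 to 5524 in ob/ob at 9 weeks, and 1099 to 1689 in wt and 3169 to 6900 in ob/ob at 14 weeks. The genotypes did not overlap in this sum at either age, and they overlapped in that of the cluster at both. Of all 248 single miRNAs, 38.7% had no overlap at 9 weeks and 23.8% at 14 weeks. Most of the hepatocyte sum was miR-192-5p, at 978 to 6628 RPM. miR-122-5p overlapped at 14 weeks, with 15.2 to 101 RPM in wt and 36.9 to 79.4 in ob/ob. miR-194-5p overlapped at 9 weeks, with 103 to 171 RPM in wt and 148 to 231 in ob/ob. Each was without overlap at the other age. The 7 mesenchymal and stellate arms (of 5 hairpins) made 1385 to 1885, 1033 to 1644, 495.9 to 1865 and 1559 to 3011 RPM in wt and ob/ob of 9 weeks and wt and ob/ob of 14 weeks. In the same order, the 9 macrophage and myeloid arms (of 5 hairpins) made 22695 to 48605, 28896 to 45657, 16455 to 25439 and 25597 to 48714 RPM. The 3 listed arms of imprinted hairpins outside the cluster, miR-335-3p, miR-335-5p and miR-298-5p, made 114 to 149, 60.1 to 137, 23.8 to 140 and 166 to 351 RPM, so that ob/ob was above wt in this sum at 14 weeks. The 5 lymphocyte arms made 7421 to 7649, 4935 to 6729, 5076 to 8208 and 5752 to 7983 RPM. The 5 biliary and epithelial arms made 51.5 to 71.2, 54.5 to 87.5, 22.7 to 56.4 and 53.1 to 104 RPM. The erythroid miR-144-5p was at 0.52 to 1.49, 14.7 to 21.7, 0.331 to 0.974 and 11.6 to 32.4 RPM. Genotypes were also without overlap in the macrophage sum at 14 weeks, the lymphocyte sum at 9 weeks and miR-144-5p at both ages. The macrophage sum was mostly miR-21a-5p, at 13315 to 43352 RPM. miR-142a-5p overlapped at 14 weeks, with 1756 to 2754 RPM in wt and 2242 to 3906 in ob/ob, as did miR-511-3p. For miR-511-3p the ob/ob libraries of 9 weeks, at 53.6 to 101 RPM, all lay below the wt ones. The lymphocyte sum was mostly miR-181a-5p, at 4702 to 7954 RPM. miR-150-5p overlapped at 9 weeks, with 135 to 269 RPM in wt and 130 to 152 in ob/ob, and miR-181b-5p did not.

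**Figure D4:**
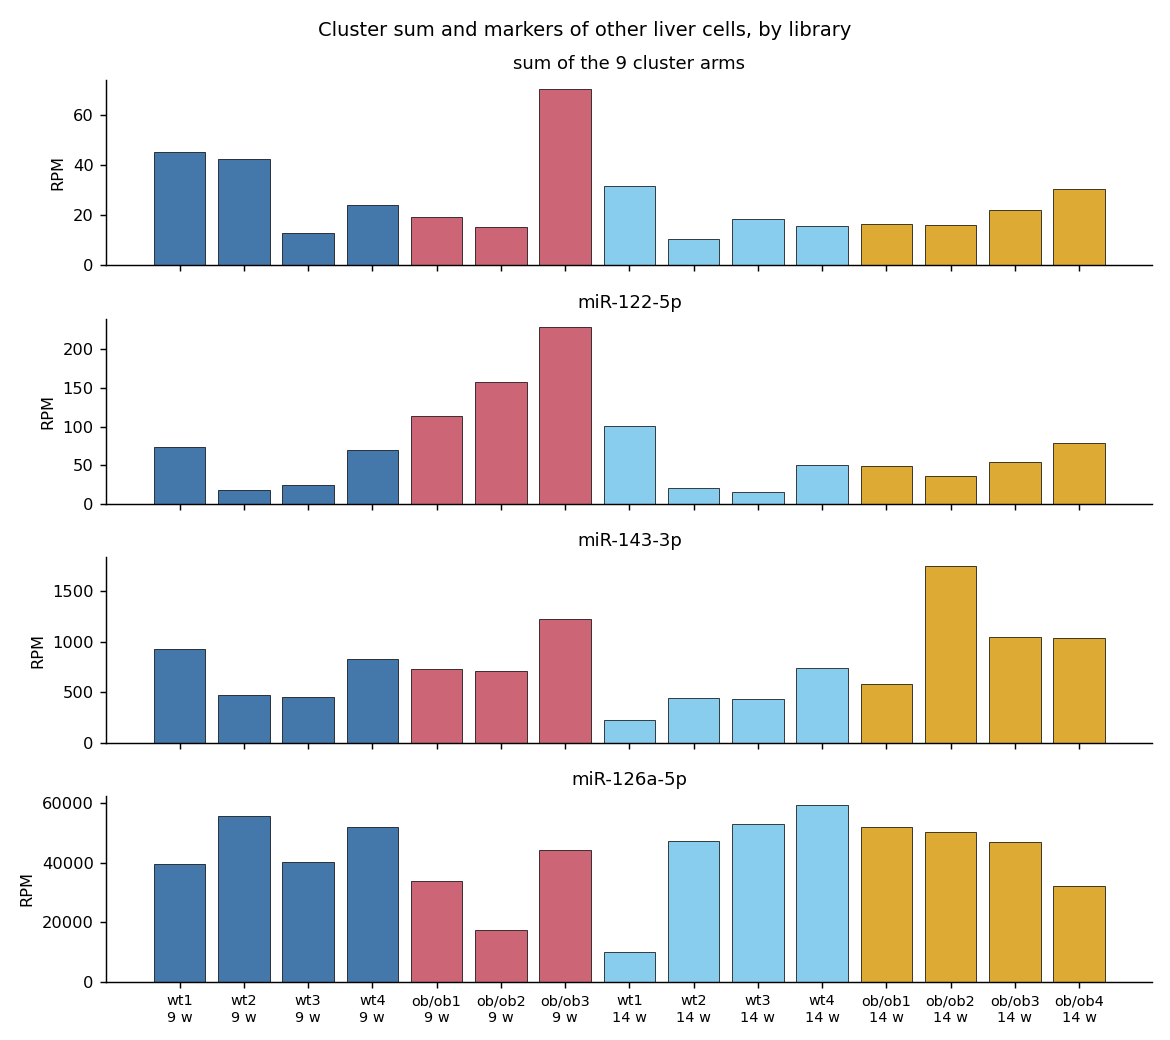
Bars give, for each of the 15 libraries (x axis), the sum of the 9 cluster arms and the levels of miR-122-5p (hepatocytes), miR-143-3p (mesenchymal cells) and miR-126a-5p (endothelium) in RPM (y axes from 0). The tallest bar of the cluster, 70.5 RPM, and that of miR-122-5p, 228 RPM, are both the third ob/ob library of 9 weeks.

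Relative to miR-127-3p in the same library, miR-411-5p and miR-541-5p varied less than the levels themselves. miR-411-5p was between 35.7 and 64.3% of miR-127-3p in all 15 libraries (median 47.1%), a 1.80-fold spread beside a 6.96-fold spread of miR-127-3p itself. miR-541-5p was between 9.69 and 23.0% (median 16.9%), a 2.38-fold spread. These arms lie 117 and 150 kb from miR-127. Both ratios in ob/ob library 3 of 9 weeks, 47.1% for miR-411-5p and 17.5% for miR-541-5p, were near the median.

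miR-434-3p, 1.66 kb from miR-127, was 20.3% of it at the median and 12.3 to 37.7% in 14 libraries. In ob/ob library 3 of 9 weeks it was 0.433%. That single library thus stood apart for this arm, while its ratios of the other 7 arms lay within the range of the other libraries. The ratio of the arms with zeros went from 0 up to 22.8% for miR-410-3p, 27.2% for miR-136-3p, 15.7% for miR-381-3p, 13.5% for miR-409-3p and 6.47% for miR-300-3p.

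Between genotypes, 0 of 8 ratios were without overlap at 9 weeks, beside 3.24% of 247 miRNAs. At 14 weeks 2 of 8 were, beside 6.88% of 247. miR-411-5p was 37.4, 39.8, 36.2 and 35.7% of miR-127-3p in wt libraries 1 to 4 of 14 weeks, and 42.3, 49.2, 47.9 and 64.3% in ob/ob. miR-410-3p was 8.16, 0, 14.98 and 7.65% in wt and 17.3, 17.2, 17.6 and 22.8% in ob/ob. All ob/ob libraries were above all wt libraries for both. The closest libraries for miR-411-5p were wt library 2 (76 reads, with 191 of miR-127-3p) and ob/ob library 1 (137 reads, with 324). For miR-410-3p the wt ratios rest on 12, 0, 31 and 15 reads. The counting error of the ratios was not estimated, so counting alone may blur this separation. These ratios do not depend on the scaling of a library, and no test was run on them. At 9 weeks the ratio of miR-411-5p was 40.9 to 61.3% in wt and 44.6 to 55.9% in ob/ob.

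**Figure D5:**
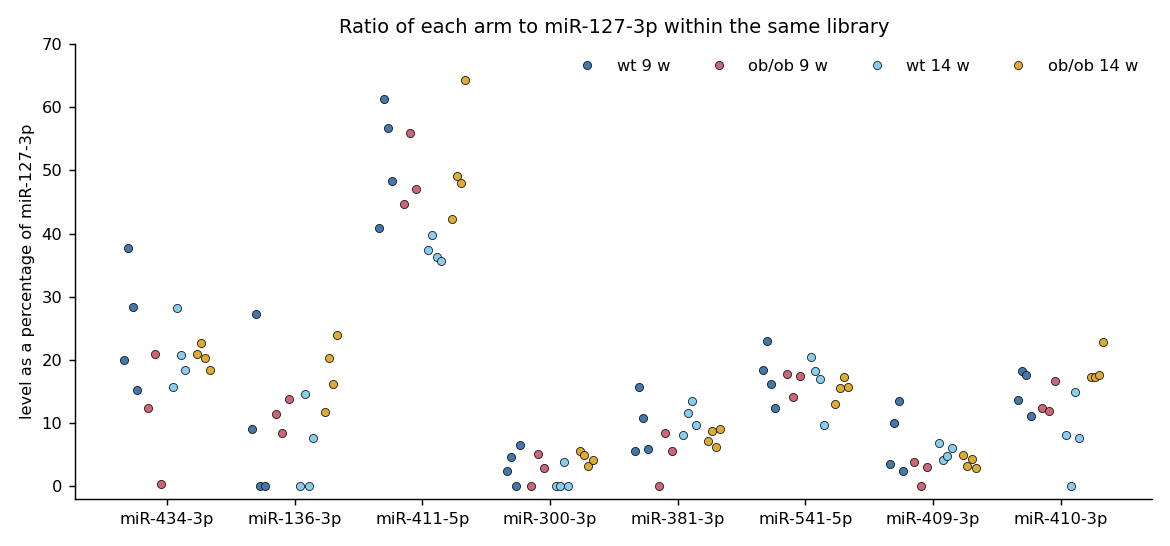
Level of each of 8 arms as a percentage of miR-127-3p in the same library (y axis), with points for libraries coloured by genotype and age. At 14 weeks miR-411-5p lay at 35.7 to 39.8% in wt and 42.3 to 64.3% in ob/ob, and the single low point of miR-434-3p, 0.433%, is ob/ob library 3 of 9 weeks.

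Lanes split the libraries of 14 weeks evenly, with replicates 1 and 2 of both genotypes in lane 1 and replicates 3 and 4 in lane 2, and all libraries of 9 weeks were in lane 2. Within lane 1 miR-127-3p differed by -0.33 and within lane 2 by 0.30 (log2, ob/ob against wt, 2 libraries a group). miR-411-5p differed by -0.11 and 0.84, miR-434-3p by -0.23 and 0.24, miR-541-5p by -0.62 and 0.48, and miR-410-3p by 0.85 and 0.87. The direction was thus the same in both lanes for miR-410-3p alone of the 5 members tested, and no member passed in either lane. In lane 1 the direction of miR-410-3p rested on the 0 in wt library 2. There wt library 1, at 1.32 RPM, lay above ob/ob libraries 1 and 2, at 1.27 and 1.16 RPM.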

How the data were processed

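Small RNA libraries of the TruSeq Small RNA kit were sequenced on an Illumina HiSeq, per the labels' protocols. The submitters' processing notes name bcl2fastq, cutadapt, GRCm38.p5 and mm10. For the aligner, the counting and the miRNA annotation, nothing is given in the sources used here. The values deposited by the authors, 1 table per age, were taken as RPM. The unit is inferred from values that are whole multiples of 1 step per library, and its denominator is not given. The design foresaw a count test or limma, and limma applied.

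Tests were made on log2(RPM + 0.5) by limma 3.58.1 under R 4.3.3 (trend, robust, Benjamini-Hochberg over all miRNAs tested, threshold 0.05) in each age alone, and as an interaction over 15 libraries. A miRNA entered a test on reaching 1 RPM in 3 libraries at 9 weeks or 4 at 14 weeks, the size of the smaller group. Fold changes on this scale understate those of rare miRNAs. The fits were tested on simulated data whose replicates varied less than the cluster's summed level did. That test therefore does not cover arms as rare and variable as these. Median-ratio rescaling used miRNAs above 0 throughout whose mean reached 5 RPM. Positions are 1-based, GRCm38, from RefSeq and GENCODE vM21, the assembly the submitters' notes name.

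Members and lists were chosen with earlier results of these data known. All 9 members are named; full statistics were due for members with a group mean of at least 10 RPM (miR-127-3p) and those past the threshold (none), and are also given for a few others chosen after their values were seen, as are all 9 sequences. The planned ratio of the arms of a hairpin was not run, since no hairpin of the cluster had both arms listed. voom, fits that leave out 2 libraries together and summed levels without each replicate were added after seeing the data.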

Additional observations from a re-analysis of the deposited data

Results flagged for a closer look

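In groups of 4 libraries, a value was marked when its gap to the nearest other library exceeded 0.829 of the group's range. Of 30 groups of the members' and summed levels so examined, 2 were marked, where chance marks about 1 in 20. miR-300-3p was at 0.337 RPM in wt replicate 3 of 14 weeks, with the other 3 wt libraries at 0. miR-381-3p was at 1.07 RPM in ob/ob replicate 4 of 14 weeks, with the other 3 at 0.523 to 0.593 RPM.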

How the results depend on the processing

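Counts of all miRNAs called moved with the scaling. At 9 weeks 67 became 38 after median-ratio rescaling and 33 per 1000000 of the listed sum. At 14 weeks 26 became 48 and 45, with 1 in lane 1 alone and 51 in lane 2 alone. The interaction called 0, and 4 with no filter and 3 with zeros missing. Without 1 replicate the counts ran from 53 to 71, from 13 to 46 (46 without wt replicate 1, 15 without wt 3 and 13 without ob/ob 3) and from 0 to 3 (3, 1 and 2 without wt 2, wt 3 and ob/ob 1 of 14 weeks). Members called were 0 at 9 weeks, 1 with zeros missing and 0 to 1 without 1 replicate (miR-434-3p without wt 3). At 14 weeks they were 0, 2 with no filter and 0 to 1 without 1 replicate (miR-136-3p without wt 2, wt 4 or ob/ob 1, where it enters the test only through the ob/ob libraries, so these calls are no support). The cause was not tested.

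Replicate numbers were not treated as pairs in the main fits. Correlations of same-numbered libraries were 0.278, 0.139 and -0.142 at 9 weeks and -0.241, 0.104, 0.202 and 0.091 at 14 weeks. Some libraries correlated best with their own number and others did not. These values do not settle whether the numbers pair the samples. With the replicate block 34 were called at 9 weeks (1 member, miR-434-3p, adjusted p = 0.0240, limma), 22 at 14 weeks and 2 in the interaction, and at 9 weeks miR-541-5p was at -0.042 and miR-410-3p at -0.052.

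No member whose sign turned was past the threshold on either side. At 9 weeks miR-136-3p was -0.65 and miR-381-3p 0.042 with zeros missing, and miR-541-5p was -0.066 and miR-410-3p -0.081 with voom. At 14 weeks miR-127-3p was 0.015 with voom and 0.30 in lane 2, miR-434-3p -0.18 rescaled, -0.19 per 1000000 listed and -0.23 in lane 1, miR-411-5p -0.11 in lane 1, and miR-541-5p 0.48 in lane 2. In the interaction miR-411-5p was -0.40 rescaled and -0.34 per 1000000 listed, miR-381-3p -0.33 with zeros missing and -0.20 rescaled, miR-409-3p -0.20 in both, miR-541-5p 0.23 with voom, and miR-127-3p and miR-541-5p 0.79 each without ob/ob replicate 3 of 9 weeks and wt replicate 1 of 14 weeks. Leaving out 1 replicate gave, at 9 weeks, -0.52 to 0.60 for miR-127-3p, -0.53 to 0.44 for miR-411-5p, -1.09 to 0.042 for miR-381-3p, -0.53 to 0.54 for miR-541-5p and -0.63 to 0.49 for miR-410-3p. At 14 weeks it gave -0.27 to 0.27 for miR-127-3p, -0.086 to 0.14 for miR-434-3p and -0.26 to 0.26 for miR-541-5p, and in the interaction -0.61 to 0.51, -0.069 to 0.90 (miR-411-5p), -0.33 to 0.80 (miR-381-3p), -0.61 to 0.46 (miR-541-5p) and -0.20 to 0.61 (miR-409-3p), the first for miR-127-3p. Summed levels of the cluster differed by -0.01 (9 weeks) and 0.22 (14 weeks) on the log2 scale, with replicate SDs of 0.998 and 0.55 (log2, pooled over the genotypes, all libraries). Without 1 replicate they ran from -0.69 (without ob/ob 3) to 0.41 and from -0.03 to 0.50 (without wt 1). The arm ratio was not run. Depth limits the rare arms: 3 reads stand for 0.330 RPM in the shallowest library.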
